A study of Homo sapiens with 6 samples.

Results

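The T cell receptor complex and its first signalling proteins were examined through 9 genes: CD3D, CD3E, CD3G, CD247, LCK, ZAP70, LAT, LCP2 and CD28. The genes were listed for their known function, but with earlier results of these data known. Every probe set annotated to them was taken. This gave 20 of the 54675 probe sets on each array. LCP2 had 6 probe sets, CD28 had 3, CD247, LCK, ZAP70 and LAT had 2 each, and CD3D, CD3E and CD3G had 1 each. The study silenced ZFX, a zinc finger transcription factor encoded on the X chromosome, in Jurkat, a human T cell acute lymphoblastic leukemia line, and in K562, a human chronic myeloid leukemia line with erythroid features.

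The 6 arrays were a control array for each line, a Jurkat and a K562 array with the ZFX hairpin 381, and a Jurkat and a K562 array with the ZFX hairpin 1012. The hairpins were delivered by lentivirus, and fluorescent cells were sorted. Where 3 values of a line are given, they are in the order control, hairpin 381, hairpin 1012. The sample labels call the controls normal cells, whereas the protocol names a control vector, shNC. It is therefore not known whether the controls were infected and sorted, and silencing and infection cannot be told apart if they were not. RNA of 3 biological replicates was pooled for each array, so an array is 1 sample, the 2 silenced arrays of a line differ in their hairpin, and no control is replicated. All values are MAS5 signals on a linear scale in arbitrary units. In a population of cells, a smaller signal from fewer expressing cells and from less RNA per cell cannot be told apart.

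ZFX itself read 608, 214 and 183 on the Jurkat arrays and 403, 163 and 130 on the K562 arrays with 1 of its 4 probe sets. With another, of the _x_at class, whose probes may also match other transcripts, it read 498, 337 and 119 and then 719, 236 and 289, so the probe sets differed in how far hairpin 381 lay below the Jurkat control. The lines carried the markers of their labels. All 14 tested markers of the T lineage were higher in Jurkat cells, among them CD1E, TRBC1, BCL11B and CD2, against 34.4% of all genes tested. All 7 tested erythroid and megakaryocytic markers were lower there, among them HBE1, HBZ, KLF1 and NFE2, against 30.2% of all genes. Of these markers 8 of the 14 were near background on all K562 arrays and 6 of the 7 on all Jurkat arrays, so they entered the test through the line that carries them and had to differ. The summed signal of the T lineage markers was between 87426 and 95666 on the Jurkat arrays and between 6107 and 8136 on the K562 arrays. Of the B cell markers CD79A and CD22 were tested and neither was called. Of 7 listed mature myeloid markers LYZ alone was tested, as the others did not pass the filter on signal. It was higher in K562 cells, but it was near background on all Jurkat arrays, so it too had to differ.

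The T cell receptor itself has no kinase activity. Its antigen-binding chains are carried by the CD3 delta, epsilon and gamma chains and by the zeta chain CD247, whose cytoplasmic tails hold the tyrosines that are phosphorylated after binding. The Src family kinase LCK phosphorylates those tyrosines, the kinase ZAP70 docks on them and phosphorylates the membrane adaptor LAT, and LAT with the cytosolic adaptor LCP2, also called SLP-76, assembles the enzymes that carry the signal on. CD28 is the main costimulatory receptor. LAT and LCP2 are also used in platelets and mast cells.

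The promoter windows of the genes are shown because 8 of the 9 genes differed together between the lines and because ZFX is known to bind the letters AGGCCT. RefSeq windows of 300 bases, from 250 before to 50 after a transcription start (build GRCh38.p14), were held for 7 of the 9 genes, 11 windows in all. CD3E and CD3G had no window. The letters searched on both strands were AGGCCT for ZFX, TGTGGT for the RUNX family of blood transcription factors, AGGAAG for the ETS family and GATAAG for the GATA family. AGGCCT is its own reverse complement. It was found in 4 of the 11 windows, those of ZAP70 (2 windows), LAT and CD28, and in 10.9% of all 35116 windows. TGTGGT was found in 4 of the 11 windows (CD3D, LCK, LAT and CD28) and in 13.1% of all windows, AGGAAG in 7 of the 11 (CD3D, CD247, LCK, ZAP70, LAT and LCP2) and in 33.6% of all, and GATAAG in 1 of the 11 (LCK) and in 6.36% of all. A match is a description of letters, not of binding.

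The stretches that hold AGGCCT follow, each with the match in capitals and read along the gene's strand. They lie on the plus strand at chr2:97713596-97713625 and chr2:97733157-97733202 for ZAP70, chr16:28984748-28984793 for LAT and chr2:203706586-203706631 for CD28.
ZAP70, start 1: gccggagctcagcagacaccAGGCCTtccg
ZAP70, start 3: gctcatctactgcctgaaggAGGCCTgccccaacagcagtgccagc
LAT, start 1: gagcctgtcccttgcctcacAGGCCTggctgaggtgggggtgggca
CD28: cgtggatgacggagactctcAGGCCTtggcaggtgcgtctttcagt
The match lay 35 bases before the start in LAT and 33 before it in CD28, 123 before start 3 of ZAP70 and 40 after its start 1.

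Whole windows are shown for CD3D, whose signal in K562 cells was clear of background, for LCK, the kinase that starts the cascade, and for LCP2, which was present in both lines. Capitals mark matches to any of the 4 motifs. The windows are chr11:118342656-118342955 on the minus strand for CD3D, chr1:32251015-32251314 and chr1:32273871-32274170 on the plus strand for the upstream and downstream starts of LCK, and chr5:170297728-170298027 on the minus strand for LCP2.
CD3D: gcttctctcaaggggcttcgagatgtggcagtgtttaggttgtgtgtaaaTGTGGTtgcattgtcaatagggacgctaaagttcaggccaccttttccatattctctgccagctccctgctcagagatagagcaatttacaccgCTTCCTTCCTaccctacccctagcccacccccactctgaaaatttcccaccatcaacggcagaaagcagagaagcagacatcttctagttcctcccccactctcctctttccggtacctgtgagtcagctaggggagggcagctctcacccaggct
LCK, upstream start: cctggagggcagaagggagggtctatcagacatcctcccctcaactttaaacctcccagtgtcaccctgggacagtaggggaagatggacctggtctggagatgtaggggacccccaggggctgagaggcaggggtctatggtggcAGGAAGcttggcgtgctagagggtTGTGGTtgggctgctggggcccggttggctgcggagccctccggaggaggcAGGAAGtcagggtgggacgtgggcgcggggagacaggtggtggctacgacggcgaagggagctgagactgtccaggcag
LCK, downstream start: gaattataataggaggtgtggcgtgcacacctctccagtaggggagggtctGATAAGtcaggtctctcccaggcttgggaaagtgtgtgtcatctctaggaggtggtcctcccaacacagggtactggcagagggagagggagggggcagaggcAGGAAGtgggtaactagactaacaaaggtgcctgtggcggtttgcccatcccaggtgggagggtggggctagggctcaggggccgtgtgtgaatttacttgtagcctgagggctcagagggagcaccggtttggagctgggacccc
LCP2: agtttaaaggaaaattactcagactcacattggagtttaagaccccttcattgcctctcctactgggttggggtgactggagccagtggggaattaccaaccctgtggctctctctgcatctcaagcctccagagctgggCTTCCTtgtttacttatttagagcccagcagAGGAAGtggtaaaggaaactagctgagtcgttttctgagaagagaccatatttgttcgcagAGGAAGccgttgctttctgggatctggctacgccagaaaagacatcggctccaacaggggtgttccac
The CD3D window held 1 TGTGGT and 2 AGGAAG matches, the latter sharing 2 bases with each other. The LCK upstream window held 1 TGTGGT and 2 AGGAAG matches, and its downstream window 1 GATAAG and 1 AGGAAG match. The LCP2 window held 3 AGGAAG matches and none of the other 3 motifs. None of these 4 windows held AGGCCT.

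The first comparison asked at what level each line carried the receptor genes. Signals near background had to be marked first. A signal was called near background on an array when it was at or below the 90th percentile, on that array, of 69 probe sets for 37 genes restricted to tissues such as liver, muscle, skin and gut. This level lay between 57.3 and 94.1 over the arrays. The highest of the 69 probe sets read between 3536 and 4006 on the Jurkat arrays and between 11458 and 14284 on the K562 arrays. Not all of them therefore read as background. In K562 cells 11 of the 20 probe sets were near background on all 3 arrays, 6 on none and 3 on some. The share near background on all 3 K562 arrays was 47.8% of all probe sets. In Jurkat cells 17 of the 20 were above background on all 3 arrays and 2 were near background on all 3, against 50.1% of all probe sets. The 2 were 234462_at of CD247 and 244578_at of LCP2.

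Of the 9 genes, 8 were higher in Jurkat than in K562 cells and none was lower (limma, a linear model fitted across all genes, over the 3 matched arms, adjusted p below 0.05). Over all 11785 genes 34.4% were called higher and 30.2% lower in Jurkat cells. A gene entered this test if its mean over all 6 arrays passed a level of 54.4, which a gene dim in K562 cells passes through its Jurkat signal alone, so such a gene had to differ. This covers 6 of the 8, CD3E, CD3G, CD247, LCK, ZAP70 and CD28, whose brightest probe sets were near background on every K562 array. Their p-values are therefore no independent evidence of a difference. Without that filter, 13 of the 20 probe sets were called higher in Jurkat cells and 0 lower, against 16.2% and 15.1% of all 54613 probe sets tested. The 3 Jurkat arrays lay above all 3 K562 arrays in 15 of the 20 probe sets, as they did in 20.1% of all probe sets.

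**Figure D1:**
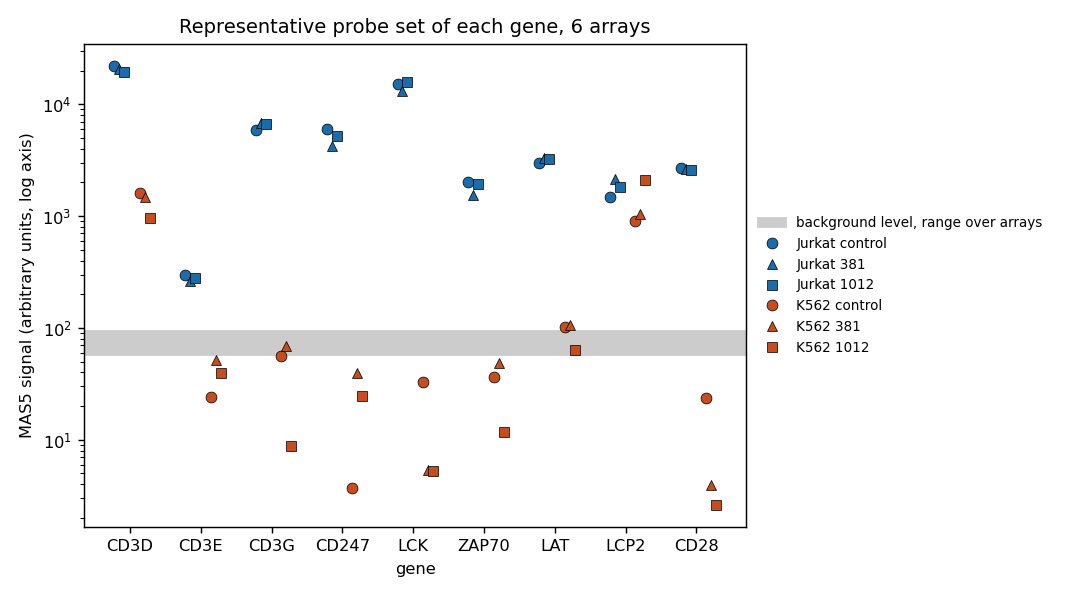
MAS5 signal (log axis) of the brightest probe set of each of the 9 genes on the 6 arrays, with Jurkat in blue and K562 in orange, circles for control, triangles for hairpin 381 and squares for hairpin 1012. Each point is 1 array and the grey band is the background level over the arrays, 57.3 to 94.1. LCP2 is the gene whose lines overlap, CD3D is the other gene above the band on every K562 array, and LAT lies at its edge.

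CD3D, the delta chain, read 22054, 20694 and 19380 on the Jurkat arrays and 1612, 1489 and 956 on the K562 arrays. The lines did not overlap, and every K562 signal was well above the background level. The Jurkat signal was 15.7-fold higher over the 3 arms (limma adjusted p = 6.5e-09). On the log2(signal + 16.9) scale used for all log2 values here, the difference was 3.95 ± 0.12 (SE). CD3G, the gamma chain, read 5876, 6842 and 6737 on the Jurkat arrays and 56.3, 69.4 and 8.75 on the K562 arrays. All 3 of its K562 signals were near background, so its fold has only a lower bound, at least 97.3-fold when K562 signals are raised to the background level. CD3D and CD3G lie next to each other on chromosome 11 with 0 annotated genes between them, as do CD3E and CD3D.

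CD3E, the epsilon chain, read 297, 263 and 278 on the Jurkat arrays and 24.3, 51.7 and 39.3 on the K562 arrays. It was above background throughout in Jurkat cells and near it throughout in K562 cells, and the Jurkat signal was at least 4.19-fold higher (log2 difference 2.45 ± 0.27, limma adjusted p = 2.9e-05). CD247, the zeta chain, read 5998, 4232 and 5243 on the Jurkat arrays and 3.71, 39.6 and 24.4 on the K562 arrays for its brighter probe set, 210031_at, at least 76.7-fold higher in Jurkat cells. Its other probe set, 234462_at, read 3.50, 41.6 and 27.9 on the Jurkat arrays and 35.4, 75.5 and 15.7 on the K562 arrays, and 1 of these 6 signals was above background. That probe set was not called (probe set fit, limma adjusted p = 0.39).

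LCK was bright in Jurkat cells and near background in K562 cells. Its brighter probe set, 204891_s_at, read 15328, 13272 and 15946 on the Jurkat arrays and 32.7, 5.40 and 5.28 on the K562 arrays. The other, 204890_s_at, read 3664, 3061 and 4247 on the Jurkat arrays and 12.95, 3.53 and 3.77 on the K562 arrays. Both probe sets were near background on every K562 array, and Jurkat signals were at least 223-fold and at least 54.5-fold higher (log2 difference of the brighter 8.99 ± 0.22, limma adjusted p = 2.7e-09). ZAP70 read 2027, 1561 and 1956 on the Jurkat arrays and 36.2, 49.0 and 11.7 on the K562 arrays with 214032_at, at least 27.6-fold higher. With 1555613_a_at it read 667, 537 and 521 on the Jurkat arrays and 18.3, 6.53 and 7.35 on the K562 arrays, at least 8.59-fold higher.

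LAT was the adaptor with a low signal in K562 cells. Its probe set 211005_at read 3012, 3304 and 3268 on the Jurkat arrays and 102, 107 and 63.5 on the K562 arrays, of which the signal with hairpin 1012 was near background. The other, 209881_s_at, read 1443, 1433 and 974 on the Jurkat arrays and 107, 111 and 128 on the K562 arrays, all above background. The line difference was 4.92 ± 0.18 (limma adjusted p = 1.8e-08) for the first, and 3.27 for the second in the probe set fit.

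CD28 read 2681, 2632 and 2606 on the Jurkat arrays with 206545_at, and 23.6, 3.92 and 2.62 on the K562 arrays, near background throughout. It was at least 39.7-fold higher in Jurkat cells. Its other 2 probe sets are of the _x_at class, whose probes may also match other transcripts. They read between 126 and 186 in Jurkat cells and between 4.94 and 47.2 in K562 cells, and were at least 2.61-fold and at least 2.42-fold higher in Jurkat cells.

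LCP2 was the exception to this pattern. Its brightest probe set, 205269_at, read 1498, 2140 and 1836 on the Jurkat arrays and 912, 1044 and 2102 on the K562 arrays. The lines overlapped, as the K562 array with hairpin 1012 lay between the 2 silenced Jurkat arrays. The line difference was 0.51 ± 0.21 on the log2 scale and missed the threshold (limma adjusted p = 0.054). It depended on the hairpin 1012 arm: without either 1012 array the difference was 0.86 (adjusted p = 0.00058 without the Jurkat array and 0.0007 without the K562 array), and 9 of the 9 genes were then called. Without either 381 array it was 0.26, and without either control array 0.41.

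The second comparison asked whether the genes changed when ZFX was silenced in Jurkat cells, where they are expressed. None of the 9 passed (limma on the 4 groups, adjusted p = 0.998 for each), and none had an unadjusted p below 0.05. Over all 11785 genes 0% passed and 3.47% had an unadjusted p below 0.05. ZFX itself was tested and did not pass in either line, so a gene that did not pass may still have changed. The 2 hairpins share a control array, so agreement between them is not replication. Signals were higher than control with both hairpins for 3 genes (CD3G, LAT and LCP2) and lower with both for 5 (CD3D, CD3E, CD247, ZAP70 and CD28), while LCK lay on opposite sides. Over all genes these shares were 31.2% and 33.7%. The median log2 difference was -0.08 over the 9 genes and -0.02 over all genes. No gene of the 9 was 2-fold from control with both hairpins, as 0.721% of all genes were.

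The differences in Jurkat cells were small. Among the 17 probe sets above background on all 3 Jurkat arrays, the largest difference from control had a log2 size of 0.56. It belonged to LAT 209881_s_at with hairpin 1012, at 67.5% of control, whereas 211005_at of the same gene read 108% there. CD247 210031_at read 70.6% of control with hairpin 381 and 87.4% with hairpin 1012, the lowest mean of the 9 genes (log2 -0.35 ± 0.31 SE). LCP2 205269_at had the highest mean, at 143% and 123% of control (log2 0.40 ± 0.39). With the mean of the LCP2 probe sets that passed the filter it was 0.10, and 244598_at and 244251_at lay at 89.1% and 75.2% of control with hairpin 1012. LCK 204891_s_at read 86.6% of control with hairpin 381 and 104% with hairpin 1012, and its log2 mean of -0.08 turned to 0.06 without the hairpin 381 array. Both ZAP70 probe sets were below control with both hairpins, at 77.0% and 96.5% for 214032_at and 80.5% and 78.0% for 1555613_a_at. CD28 206545_at read 98.2% and 97.2% of control, and CD3D read 93.8% and 87.9%.

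**Figure D2:**
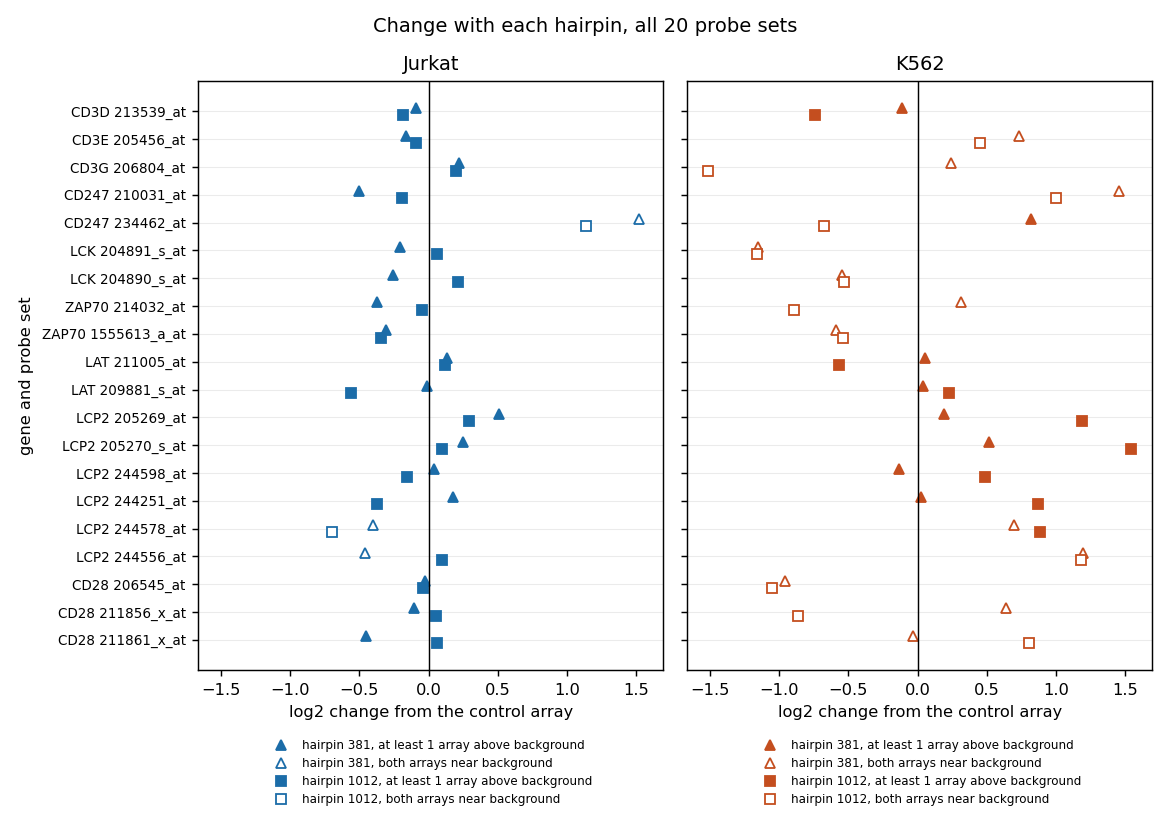
Log2 difference from the control array of the line, log2(signal + 16.9), for all 20 probe sets in Jurkat (left) and K562 (right) cells, with triangles for hairpin 381 and squares for hairpin 1012. Open symbols mark pairs in which both the silenced and the control signal were near background. Filled Jurkat symbols of the 17 probe sets above background on every array stay within 0.56 of control, and most K562 symbols are open.

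In K562 cells the same comparison rested on few readable probe sets. None of the 9 genes passed (limma adjusted p = 0.898 or higher), as 0% of all genes did. An unadjusted p below 0.05 was reached by 3 of the 9, LCK, CD28 and CD247, against 4.91% of all genes. All 3 were near background on every K562 array. LCK read 32.7, 5.40 and 5.28, and its difference of -1.16 ± 0.27 was -0.46 with a pseudocount 4 times larger. CD28 read 23.6, 3.92 and 2.62 (log2 -1.01 ± 0.29), and CD247 read 3.71, 39.6 and 24.4 (log2 1.23 ± 0.31). By size, LCK and CD247, 2 of the 9, differed from control by 2-fold or more with both hairpins, against 1.12% of all genes, and 0 of the 9 with a pseudocount 4 times larger. Over the 9 genes 3 were higher with both hairpins (CD3E, CD247 and LCP2) and 3 lower (CD3D, LCK and CD28), where all genes gave 31.1% and 33.7%. The median log2 difference was -0.29 over the 9 genes and -0.02 over all genes.

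The 6 probe sets above background on all 3 K562 arrays were those of CD3D, LAT 209881_s_at and 4 of LCP2. CD3D read 92.4% of control with hairpin 381 and 59.3% with hairpin 1012 (log2 -0.43 ± 0.26 over both). LAT 209881_s_at read 103% and 119% of control. For the brightest probe sets of CD3G, ZAP70 and LAT the K562 mean over both hairpins was negative. Leaving out the K562 array with hairpin 1012 turned it to 0.24, 0.31 and 0.06, so the direction of these probe sets rested on that array. Those of CD3G and ZAP70 were near background on every K562 array. The other ZAP70 probe set, 1555613_a_at, also near background, was lower with both hairpins (log2 -0.59 and -0.54).

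LCP2 differed between the hairpins in K562 cells. With hairpin 1012 all 6 LCP2 probe sets were above control, and 205269_at read 230% of control, 205270_s_at 303%, 244251_at 201% and 244598_at 146%. With hairpin 381 these read 114%, 146%, 102% and 89.7%, and 5 of the 6 probe sets were above control. The remaining 2 probe sets, 244578_at and 244556_at, were near background on 2 and on 3 of the K562 arrays. All LCP2 probe sets read the same RNA against the same control array, so their agreement is not replication. The share of all probe sets above control on these arrays was not counted. By its brightest probe set LCP2 was the single gene of the 9 higher than control on all 4 silenced arrays, as 12.7% of all genes were. Its probe set 205270_s_at was also higher on all 4, whereas 244598_at, 244251_at, 244578_at and 244556_at were not. The K562 difference of 205269_at was 0.69 ± 0.39 over both hairpins (limma adjusted p = 0.997) and did not pass. Among the other LCP2 probe sets above background on every K562 array, 205270_s_at differed by 1.03 (probe set fit, limma unadjusted p = 0.042). There 244598_at differed by 0.18 and 244251_at by 0.45 (limma unadjusted p = 0.67 and 0.38). The probe sets for poly-A spike-ins, designed for RNA added before labelling, also lay above control on the K562 array with hairpin 1012. Their median log2 difference there was 0.69 over 24 probe sets. The labels do not say whether spike-ins were added. The same median was 0.34 on the K562 array with hairpin 381, 0.075 on the Jurkat array with hairpin 381 and 0.45 on that with hairpin 1012. Their part in the LCP2 signal was not tested.

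**Figure D3:**
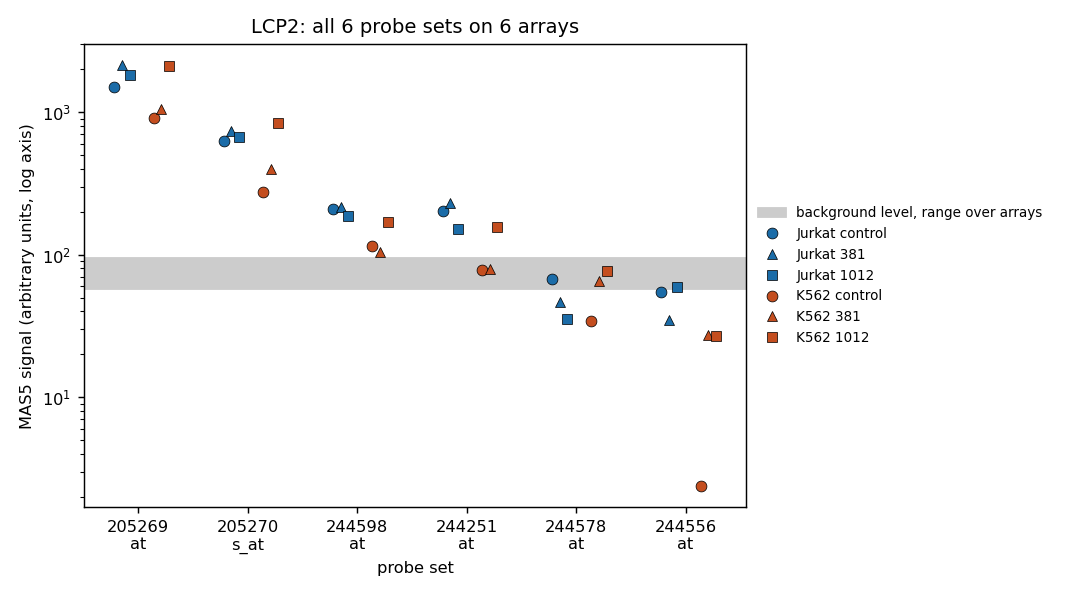
MAS5 signal (log axis) of the 6 LCP2 probe sets on the 6 arrays, with the same colours, symbols and grey background band (57.3 to 94.1) as in the plot of all 9 genes. In the 4 leftmost probe sets the K562 square (hairpin 1012) is the highest K562 point, between 146% and 303% of control.

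The silencing effects of the lines were compared as an interaction, K562 minus Jurkat. None of the 9 passed (limma adjusted p = 0.9997), as 0% of all genes did. CD247, LCK and CD28 had unadjusted p values of 0.0078, 0.021 and 0.046, where 2.45% of all genes had one below 0.05. Each of the 3 rests on K562 signals near background. Averaged over both lines, again none of the 9 passed, as 0% of all genes did. LCK (log2 -0.62 ± 0.19) and CD28 (log2 -0.52 ± 0.21) had an unadjusted limma p below 0.05, against 6.05% of all genes. These averages also rest on K562 signals near background, at -1.16 for LCK and -1.01 for CD28. In Jurkat cells the differences were -0.08 and -0.03.

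The remaining genes of the pathway were described from 5 lists, with a line difference tested over the matched arms and a median of 0.04 over all genes, of which 34.4% were called higher and 30.2% lower in Jurkat cells. Genes near background on every K562 array are given by a lower bound, and such genes passed the filter through Jurkat cells alone. Of 7 listed receptor chains and receptor-associated genes 2 could be tested, TRBC1, the constant region of the beta chain, and TRAT1, an adaptor that binds the receptor and is not a chain of it. Both were higher in Jurkat cells, TRBC1 by 6.19 ± 0.15 on the log2 scale and TRAT1, near background on every K562 array, at least 29.6-fold. TRBC1 read 360, 353 and 211 in K562 cells, above background on each array, through a probe set of the _x_at class that may also match other transcripts. Of 10 tested coreceptors and costimulatory genes 7 were higher in Jurkat cells and 1 lower, with a median of 2.89, or 2.43 with signals near background raised to that level, and 5 of the 7 were near background on every K562 array. The adhesion receptors CD2 and CD48 were at least 57.9-fold and at least 52.2-fold higher. The phosphatase PTPRC, or CD45, which activates LCK, was above background in both lines and higher by 2.58 ± 0.10. The coreceptor CD4, near background on 1 Jurkat and 2 K562 arrays, was not called (0.23 ± 0.36). CD58, the ligand of CD2, named after its value was seen, was the lower gene (-1.16 ± 0.12).

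Among 19 genes that regulate the proximal kinases 13 were higher in Jurkat cells, 1 was lower and 5 were not called, with a median of 1.88, or 1.90 with raised signals, and 7 of the 13 were near background on every K562 array. PAG1, a membrane anchor for the inhibitory kinase CSK, was at least 49.1-fold higher. The adaptor SH2D1A, near background on 1 K562 array, was higher by 6.46 ± 0.17, whereas CSK itself was not called (0.24). Downstream of LAT and LCP2, 21 of 27 tested genes were higher, 2 lower and 4 not called, with a median of 1.81, or 1.41 with raised signals, and 7 of the 21 were near background on every K562 array. RASGRP1, which activates Ras, was at least 125-fold higher, and the exchange factor VAV3, near background on 2 K562 arrays, was higher by 6.25 ± 0.16. The adaptor GRB2 and the signalling protein BCL10, used in many cell types, were not called, at 0.15 and 0.04.

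The tested counterparts used in other blood cells divided. Of 12 listed genes 5 could be tested, 2 were higher and 2 lower in Jurkat cells, with a median of 0.22, or 0.33 with raised signals. The Src family kinase LYN read 13.1, 6.18 and 28.8 on the Jurkat arrays and 3654, 2491 and 3233 on the K562 arrays, the reverse of LCK. The Tec family kinase BTK read between 26.1 and 27.9 in Jurkat cells and between 1740 and 2140 in K562 cells. LYN and BTK were near background on every Jurkat array, so they passed the filter through K562 cells alone and had to differ. SYK, the relative of ZAP70, was present in both lines, at 1010, 1266 and 1004 on the Jurkat arrays and 488, 528 and 757 on the K562 arrays, and was higher in Jurkat cells by 0.89 ± 0.18 (limma adjusted p = 0.0018). PLCG2 was higher in Jurkat cells by 2.62 ± 0.21.

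**Figure D4:**
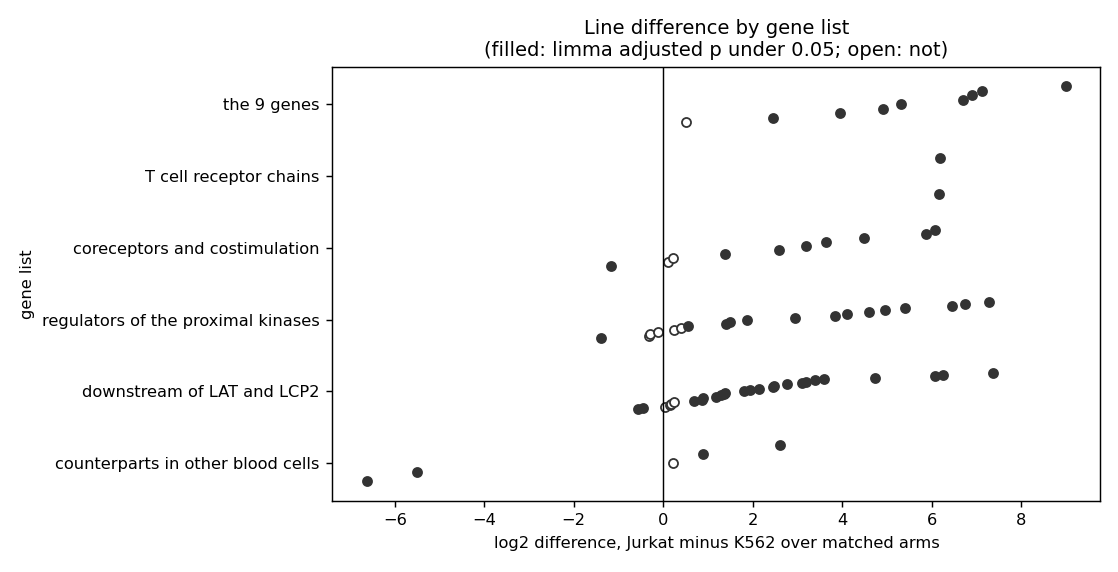
Log2 difference, Jurkat minus K562 over matched arms, for the 9 genes and for the tested genes of the 5 pathway lists, each point a gene, filled where limma's adjusted p was below 0.05. Of the 9 genes LCP2 alone is open, and LYN and BTK are the 2 points far below 0 in the lowest list.

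No gene of these lists passed in either silencing comparison. In Jurkat cells 0 of them had an unadjusted p below 0.05, against 3.47% of all genes. In K562 cells, where 4.91% of all genes had one, 2 of 19 kinase regulators did, SLA (log2 1.62), an adaptor that lowers receptor levels, and UBASH3A (log2 -1.20), a negative regulator of ZAP70, both near background on all 3 K562 arrays. So did 4 of 27 downstream genes, MAP4K1, THEMIS, VAV1 and VAV3. THEMIS was near background on 3 K562 arrays, VAV3 on 2, MAP4K1 on 1 and VAV1 on 0. MAP4K1, a kinase that phosphorylates LCP2, read 17.9, 81.4 and 102 on the K562 arrays, and VAV1, an exchange factor bound by LCP2, read 241, 133 and 148. PLCG2 read 81.6, 157 and 150 (log2 0.79).

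The genes most like the 9 were sought as those with the highest Pearson r to their mean log2 profile over the 6 arrays. These were PAWR, SCAPER, TRBC1, PXDN and ZEB1, with r between 0.9995 and 0.9998. The likeness follows the line difference, since 566 of 11776 genes had an r above 0.99, and the 6 points share 2 cell lines.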

How the data were processed

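Each of 6 one-colour Affymetrix arrays was hybridised with RNA pooled from 3 biological replicates, per the series' design. The deposited files hold linear intensities for which the submitters' processing notes name MAS5. Its version is not given in the sources used. The 2% trimmed mean signal was between 500.07 and 500.08 on each array, so the deposited values share a scale. No detection calls were used.

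Symbols came from the platform annotation (41097 probe sets with 1 symbol, 1801 with several, 11777 with none). Tests ran on log2(signal + 16.9), which understates differences of dim genes. The added 16.9 is the 25th percentile over the 6 arrays. Array controls were dropped, probe sets whose mean exceeded the median were kept, and the brightest kept probe set represented a gene (11785 genes). Of the 20 probe sets of the 9 genes 16 passed, at least 1 for each gene. A second fit took every probe set without a filter.

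limma 3.58.1 in R 4.3.3 was used with empirical Bayes and an intensity trend, two-sided p-values and Benjamini-Hochberg adjustment over all genes at 0.05. Silencing was tested on 4 groups (2 residual degrees of freedom), so its spread is that between arrays of different hairpins and controls are assumed to vary alike. The lines were compared with the arm (control, 381, 1012) as a block (2 residual degrees of freedom). These p-values measure the spread between arrays, not between biological replicates. The fits were tested on simulated data. "At least" folds divide geometric means over the 3 arrays of a line after K562 signals were raised to the background level.

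The 9 genes and all lists were chosen with earlier results of these data known. Named in the text were the 9 genes with all probe sets, ZFX, up to 4 genes of each list by the smallest p in the line or silencing comparisons, and the 5 genes most like the 9 by Pearson r. Genes named outside this rule, besides markers, are GRB2, BCL10, CD58, E2F1 and MZT1, chosen after their values were seen. Alternatives covered the pseudocount, filter, probe set rule, normalization, trend, block, background level and each array left out.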

Additional observations from a re-analysis of the deposited data

Results flagged for a closer look

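In 2 of the 9 genes both hairpins lay below control in Jurkat cells and above it in K562 cells. Over all genes 33.7% lay below control with both hairpins in Jurkat cells, and 31.1% above it with both in K562 cells. The share of all genes with both traits was not counted, so the 2 genes cannot be called unusual. CD247 had log2 differences of -0.50 and -0.19 in Jurkat and 1.45 and 1.00 in K562 cells, a difference between the lines of 1.58 ± 0.45 SE (limma adjusted p = 0.9997). CD3E had -0.17 and -0.09 in Jurkat and 0.73 and 0.45 in K562 cells, a difference of 0.72 ± 0.52 (limma adjusted p = 0.9997). Neither difference passed over all genes, and all 6 K562 signals involved were near background. Each line has a single control array, which both of its hairpins share.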

How the results depend on the processing

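Among the counts of genes and probe sets, 3 changed by over 1.5 times with the processing. Averaged over both lines 2 genes passed without the K562 hairpin 381 array (E2F1, limma adjusted p = 0.028, and MZT1, 0.019, named after their values were seen), and 0 passed with all arrays or without any other silenced array. With a pseudocount 4 times larger 0 of the 9 genes reached 2-fold with both hairpins in K562 cells, against 2. With the 75th percentile as the background level 6 of the 20 probe sets were near background on all K562 arrays, against 11. In all other settings the silencing comparisons called 0 genes. The line comparison called between 6 and 9 of the 9 genes; 6 is the count at a filter on the 75th percentile, where fewer genes were tested. Leaving out each silenced array in turn, the K562 log2 difference ranged from -1.51 to 0.24 for CD3G, -0.89 to 0.31 for ZAP70 and -0.57 to 0.056 for LAT, and the Jurkat difference from -0.21 to 0.057 for LCK. LAT in Jurkat cells was -0.080 with the mean of its probe sets, and CD28 in Jurkat cells 0.0016 after cyclic loess; the cause was not tested. The line difference of LCP2 also passed with a pseudocount 4 times larger (0.49), the 75th percentile filter (0.51) and the mean of its probe sets (0.63), besides the 0.86 without either 1012 array. Arrays with the same number carry the same hairpin in both lines. The log2 difference of hairpin 1012 minus hairpin 381 in Jurkat cells correlated with that in K562 cells at r = 0.21 across genes. With the hairpin as a replicate block 0 genes passed in each silencing comparison. Without the arm as a block the line comparison again called 8 of the 9 genes. Low signals limit the K562 values, with 11 of 20 probe sets near background there, as were 47.8% of all probe sets.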
